A study of Harpegnathos saltator with 36 samples.

Results

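A search for low-abundance genes that were read clearly in some brains and hardly at all in the rest found 1 gene, Hsal_16874, among 18429 genes of the ant Harpegnathos saltator. The search used the deposited read counts of 18 brains and no group label. It kept genes with a mean under 10 CPM (counts per 1000000 gene counts of the brain), a count over 20 in 3 to 15 brains, and a count of at most 2 in every other brain. A brain with a count over 20 is called on for that gene below, and this word describes a count and not a state of the gene. Hsal_16874 was chosen by its counts in these brains, so its levels are given as a description.

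The brains, dissected without optic lobes, came from dueling ants in a colony in transition. The 9 CrzR siRNA brains came from ants given Dicer-substrate siRNA against the corazonin receptor (CrzR), and the 9 GFP siRNA brains from ants given control siRNA to the jellyfish gene GFP. Both siRNAs were complexed with in vivo-jetPEI and injected into the head (volume 0.5 µl, concentration 5 µM) on day 6 of the transition, after 3 days of dueling, and ants were kept in groups of 6 with 3 per siRNA. Each library held polyadenylated RNA of 1 brain, taken 1 day after the injection. Because 3 ants per siRNA shared a nest, brains of one siRNA may come from nest mates, which the labels do not tell, and the tests below take the 18 brains as independent. All groups share the dueling, the injection and the delivery reagent. No genotype or age of the ants is given in the sources used here.

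Workers of this ant duel with their antennae after the queen is lost, and some of them become reproductive workers (gamergates). Corazonin is an insect neuropeptide that acts through a G protein-coupled receptor, and in this species it is known for promoting worker behaviour and for lowering expression of the yolk protein precursor vitellogenin. A gene with reads in few individuals of one tissue is a pattern of presence and absence between individuals, which group means do not show.

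Counts assigned to genes ran from 9508039 to 23749133 per CrzR siRNA brain and from 9979706 to 23581498 per GFP siRNA brain. None of the 19198 row IDs could be paired with a name in the reference table (matches found: 0), so neither the targeted receptor nor brain cell type markers were checked, and no function is given for any gene below. The files hold no coordinates, so neighbouring IDs are not shown to be neighbours on a chromosome. The sources used here do not say whether the counting used the strand, and overlapping gene models that share reads cannot be told apart. In RNA of a dissected brain, fewer cells of a type and less RNA per cell cannot be told apart.

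Hsal_16874 was on in 3 of 9 CrzR siRNA brains and in 0 of 9 GFP siRNA brains. Among CrzR siRNA brains it had 58 counts in replicate 1, 238 in replicate 7 and 1524 in replicate 8, and 0 counts in replicates 2, 3, 4, 5, 6 and 9. Among GFP siRNA brains it had 1 count in replicate 7, 1 count in replicate 8 and 0 counts in the other 7 brains. The 3 on brains thus stood far above the rest, and no brain lay between 1 and 58 counts. A count of 0 allows up to 0.137 CPM in the deepest and 0.316 CPM in the shallowest of the 13 brains at 0, taking 3 counts as the floor. Intervals and floors here cover counting error alone.

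Levels also differed among the 3 on brains. Hsal_16874 was at 4.45 CPM in CrzR siRNA replicate 1, 12.7 CPM in replicate 7 and 64.2 CPM in replicate 8, a range of 14.4-fold. Replicate 8 held 83.6% of all counts of the gene. Per length, over a gene model of 4169 bases, the values were 1.07, 3.05 and 15.4 RPKM (CPM per kilobase of gene model). The on brains had gene totals between 13029982 and 23749133, and the other 15 brains had totals between 9508039 and 23581498, so both deep and shallow libraries were off. After every brain was scaled to the total of the shallowest one, Hsal_16874 was again the 1 gene found.

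**Figure D1:**
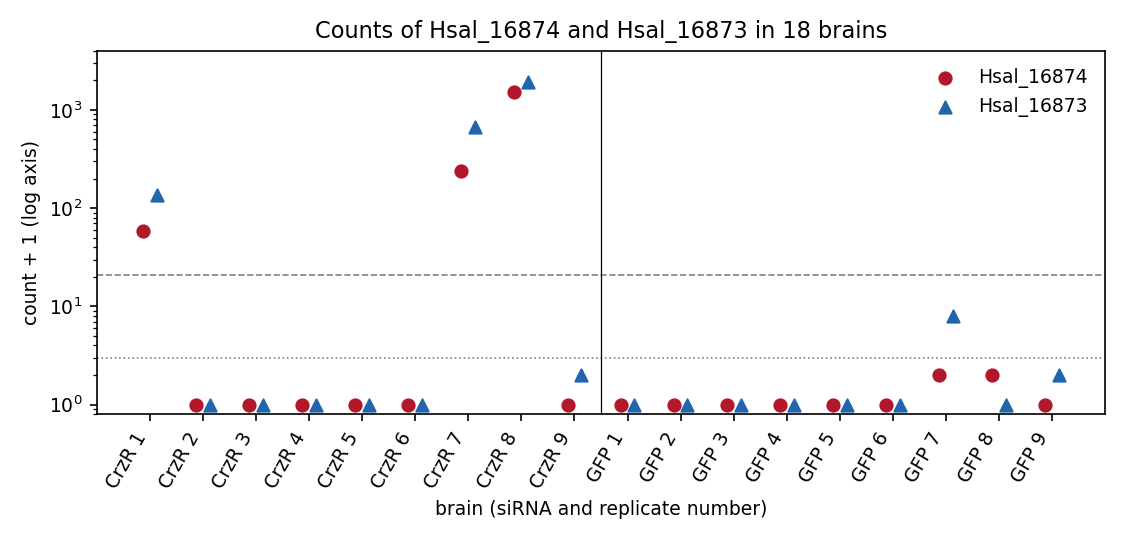
Counts plus 1 on a log axis for Hsal_16874 (circles) and Hsal_16873 (triangles), 1 point per brain, with the 9 CrzR siRNA brains left of the vertical line and the 9 GFP siRNA brains right of it. The dashed line marks a count of 20 and the dotted line a count of 2; CrzR siRNA replicates 1, 7 and 8 are the only brains above the dashed line.

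The comparison of the siRNAs asked which brain transcripts differ 1 day after injection of siRNA against the receptor, whose level was not checked. For this gene the rule had used no group label. The 9 CrzR siRNA brains averaged 9.04 ± 21.1 CPM, against 0.0144 ± 0.0307 CPM for the 9 GFP siRNA brains (SD), and the median was 0 in both groups. The counts summed to 1820 over the CrzR siRNA group and to 2 over the GFP siRNA group. Relative to the summed gene counts this is a ratio of 907 (exact 95% interval 251 to 7494, counting error alone). Without CrzR siRNA replicate 8 the CrzR siRNA sum was 296 counts against 2, and the ratio was 175 (48.0 to 1451). The spread within CrzR siRNA brains was larger than the difference between the group means, and 6 of those brains were at 0, as were 7 of the 9 controls.

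No test called this difference. The edgeR quasi-likelihood test over 10404 genes gave Hsal_16874 a log2 fold change of 8.71 (SE 1.96), with an unadjusted p of 0.000253 and an adjusted p of 0.543. That test called 0 of the 10404 genes (0.0%) at an adjusted p under 0.05, and 841 genes passed an unadjusted p under 0.05, of which 493 were higher and 348 lower in CrzR siRNA brains. DESeq2 called 3 of the same 10404 genes (0.0288%), and Hsal_16874 was not among them. With library size alone as the scaling, the split was 760 higher and 112 lower, and the log2 fold changes of the tested genes had a median of 0.10. For the same difference in mean CPM, an exact permutation test over all 48620 splits of the 18 brains, added after the values were seen, gave a two-sided p of 0.206. The splits at least as extreme were the 10010 that put all 3 on brains in one group, so this p rests on the place of those 3 brains and not on their levels. Higher levels in the 3 on brains could not have brought it under 0.05, so it does not decide whether levels differ.

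Detection alone was compared in the same way. The share of on brains was 33.3% in CrzR siRNA brains (exact 95% interval 7.49 to 70.1%) and 0% in GFP siRNA brains (0 to 33.6%). Fisher's exact test gave a two-sided p of 0.206, which is the smallest value that 3 on brains among 9 and 9 can give and adds nothing to the permutation test. Over the 1434 genes that were on in 3 to 15 brains, Fisher's exact test with Benjamini-Hochberg adjustment called 0 genes (0.0%), with 17 genes at an unadjusted p under 0.05, and the adjusted p of Hsal_16874 was 1. With 9 brains per group and this many genes, a gene on in every brain of one group alone could not be called by itself. The 0 calls therefore do not show that detection was alike in the groups. Among low-abundance genes, 124 were on in exactly 3 brains. Of these, 17 were on in CrzR siRNA brains alone and 7 in GFP siRNA brains alone, so Hsal_16874 was not the single gene with such a distribution. Over all 1424 low-abundance genes on in 3 to 15 brains, 795 were on in more CrzR siRNA than GFP siRNA brains, 371 in fewer and 258 in equally many. On calls use counts without scaling between brains. In edgeR the median log2 fold change was 0.10 with library size alone and 0.00021 in the main fit. The part of scaling in these splits was not tested.

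The submitters' internal reference numbers fall into a higher and a lower series, and what these mark is not stated. Hsal_16874 was on in 1 of 8 brains of the higher series and in 2 of 10 of the lower one (Fisher's exact test, two-sided p = 1). Detection over the 1434 genes gave 0 calls for this split as well (0.0%), with 11 genes at an unadjusted p under 0.05. With the series as a covariate in edgeR, the log2 fold change for the siRNAs was 9.09 (adjusted p = 0.299).

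In the authors' deposited table, Hsal_16874 had a log2 fold change of 6.89, a p-value of 0.0201 and an adjusted p of 0.630, with a mean scaled count (baseMean) of 14.97. DESeq2 replaces single counts that it finds to be outliers. In a DESeq2 fit to the 10404 genes, the 1524 counts of CrzR siRNA replicate 8 were replaced by 0, and the mean scaled count was 14.99 with the replacement and 68.4 without it. The fit with the replacement gave a log2 fold change of 6.89 (SE 2.97, DESeq2 adjusted p = 0.453). Without the replacement it gave 9.10 (SE 2.85, DESeq2 adjusted p = 0.326). The brain with the highest level of this gene thus entered the first of these fits as a brain without reads. For the neighbouring gene Hsal_16873 no count was replaced.

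The gene with the preceding ID, Hsal_16873, was on in the same 3 brains. It had 136 counts in CrzR siRNA replicate 1, 664 in replicate 7, 1939 in replicate 8 and 1 in replicate 9, and 0 in the other 5 brains of that group. In GFP siRNA brains it had 7 counts in replicate 7, 1 in replicate 9 and 0 in the other 7. The 7 counts of GFP siRNA replicate 7 kept this gene outside the rule, which allows at most 2. Its mean over all brains was 7.13 CPM, and that of Hsal_16874 was 4.52 CPM. In edgeR its log2 fold change was 7.68 (SE 1.85, edgeR adjusted p = 0.543), and in the authors' deposited table it was 7.15 with an adjusted p of 0.566.

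The order of the 3 on brains was the same for both genes, but their proportion was not constant. Hsal_16874 took 29.9% of the counts of the pair in CrzR siRNA replicate 1 (Wilson 95% interval 23.9 to 36.7%) and 26.4% in replicate 7 (23.6 to 29.4%). In replicate 8 it took 44.0% (42.4 to 45.7%), above the intervals of the other two. Per length, with 2860 bases for Hsal_16873, the level of Hsal_16873 was 3.42 times that of Hsal_16874 in replicate 1, 4.07 times in replicate 7 and 1.85 times in replicate 8. Together the genes took 14.9, 48.1 and 146 CPM of the gene counts in these brains.

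Other genes with nearby IDs did not share the pattern. The 5 genes from Hsal_16868 to Hsal_16872 had 0 counts in all 18 brains, as did Hsal_16877, and 2488 of all genes (13.5%) were at 0 throughout. Hsal_16875, Hsal_16876, Hsal_16878 and Hsal_16879 had at most 9 counts in any brain. Hsal_16880 was on in all 18 brains, between 886 and 3855 counts. The run of IDs on in the same brains was thus 2 long, with genes at or near 0 on both sides.

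**Figure D2:**
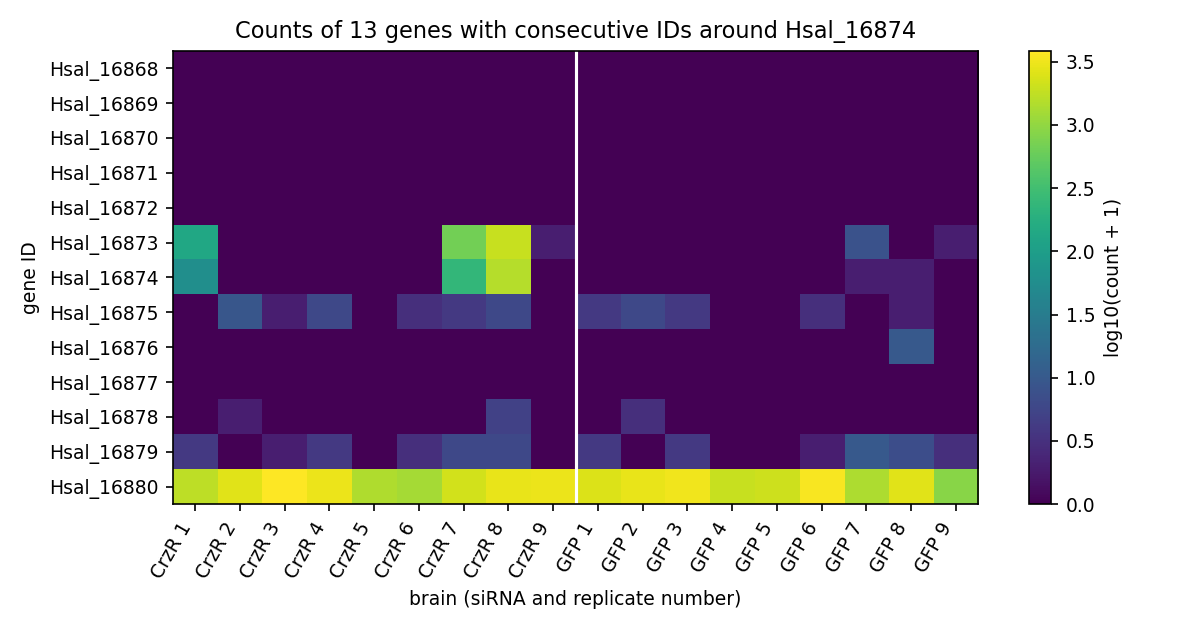
Colour gives log10(count + 1) for 13 genes with consecutive IDs (rows) in the 9 CrzR siRNA brains (left of the white line) and the 9 GFP siRNA brains (right of it). Hsal_16873 and Hsal_16874 are bright in CrzR siRNA replicates 1, 7 and 8 and near 0 elsewhere, and Hsal_16880 has reads in every brain.

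Among the 1434 genes on in 3 to 15 brains, 2 others were on in exactly the brains of Hsal_16874. One was Hsal_16873 and the other Hsal_04695, named after its values were seen. Hsal_04695 had 25, 22 and 47 counts in CrzR siRNA replicates 1, 7 and 8, and up to 20 counts in the other brains, so its counts ran on without a gap across the threshold. No gene of the 1434 matched Hsal_16874 in 17 of 18 brains.

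A gap of this size was rare among low-abundance genes. Of the 1424 genes with a mean under 10 CPM that were on in 3 to 15 brains, the median over genes of the highest count among brains that were not on was 19. The lowest on count divided by that highest count had a median of 1.25. For Hsal_16874 that ratio was 58.0, with 58 counts against 1. The next genes were Hsal_16873 with 19.4, Hsal_17169 with 8.73, Hsal_17385 with 6.40 and Hsal_17016 with 5.67. Because the rule selects for a gap, the rank of Hsal_16874 is a description.

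**Figure D3:**
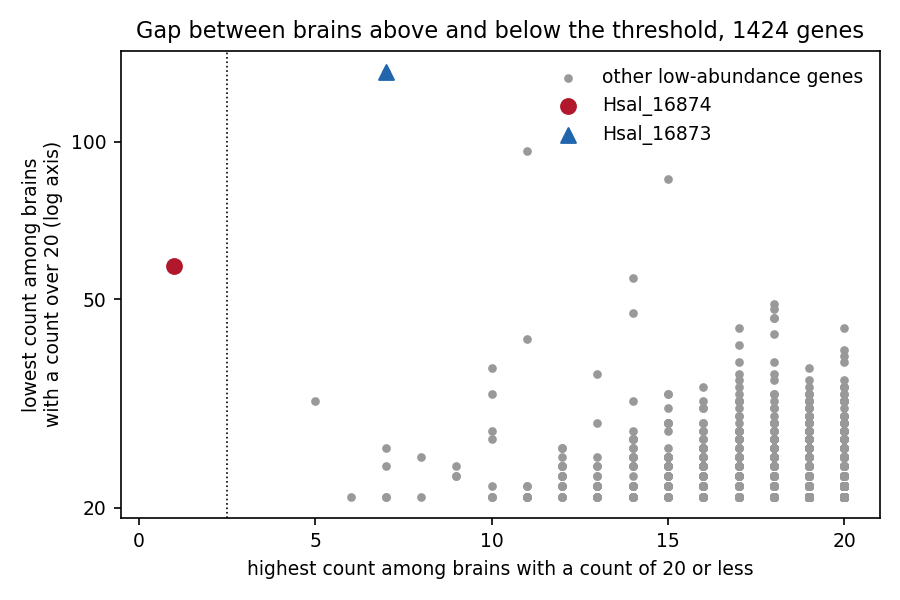
Each point is 1 of 1424 low-abundance genes; the horizontal axis is the highest count among its brains with 20 counts or fewer, and the vertical log axis the lowest count among its brains over 20. Hsal_16874 is the 1 gene left of the dotted line that marks the limit of 2 counts, and Hsal_16873 lies at 7 and 136 counts.

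The thresholds decided which genes were found. Hsal_16874 lay inside them with a highest off count of 1, a lowest on count of 58 and a mean of 4.52 CPM, and at the edge for the number of on brains, which was 3. The closest gene outside for its off counts was Hsal_17385, on with 48 and 32 counts in CrzR siRNA replicates 4 and 8 and with 58 in GFP siRNA replicate 3, and at up to 5 counts elsewhere. Lowering the on limit to a count over 10, with the other limits kept, brought in 4 further genes. Of these, Hsal_17016 had 94 counts in CrzR siRNA replicate 3 and 85 and 88 counts in GFP siRNA replicates 1 and 6, but also 15 counts in GFP siRNA replicate 5 and 0 in the other 14 brains.

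The other 3 of these genes had more intermediate brains. Hsal_16587 was on in 6 CrzR siRNA and 4 GFP siRNA brains. Hsal_15618 was on in 6 CrzR siRNA and 5 GFP siRNA brains, with up to 56 counts, and Hsal_18024 in 1 of each, with up to 55 counts. At the main on limit Hsal_18024 thus also missed the 3 on brains that the rule asks for. For the number of on brains alone, 4 genes lay outside with 1 on brain and 5 with 17, and none with 2 or 16. The 4 genes with 1 on brain had 24 counts in 1 CrzR siRNA brain for 1 gene, and 79, 50 and 25 counts in a GFP siRNA brain for the other 3. No gene was kept out by the limit on the mean.

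Raising the off limit to 10 counts, a choice made after the data were seen, gave 21 genes, and these too carry no test. They were on in 3 to 15 brains, and 15 of them were on in more CrzR siRNA than GFP siRNA brains and 6 in fewer. That is 71.4%, with 0 genes on in equally many brains of both groups. Of the 1424 low-abundance genes, 55.8% were on in more CrzR siRNA brains and 26.1% in fewer, and 258 were on in equally many. These ties count in the total of the larger set alone, so the 2 percentages cannot be set side by side. Without ties, the larger set had 795 genes on in more CrzR siRNA brains and 371 in fewer, beside 15 and 6 here. Both sets thus leaned to CrzR siRNA brains, and no tilt particular to the wider set is read from these counts. The pair Hsal_16873 and Hsal_16874 were the only ones of the 21 that were on in 1 siRNA group alone. Between 6 and 18 of the 21 genes were on in a CrzR siRNA brain (median 12) and between 4 and 15 in a GFP siRNA brain (median 11). After scaling all brains to the shallowest one, 2 of the 21 genes still met this wider rule, Hsal_16873 and Hsal_16874.

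The off brains of some of the 21 genes were shallow libraries. Of the 7 genes on in 15 brains, 4 had all of their off brains among the 4 shallowest libraries, which had up to 11471654 gene counts. Hsal_01441, Hsal_05884 and Hsal_16732, whose IDs lie far apart, shared the same 3 off brains, CrzR siRNA replicate 6 and GFP siRNA replicates 7 and 9. Relative to depth these genes were also lower there. Their off brains had at most 0.701, 0.631 and 0.802 CPM in this order, and their on brains at least 1.61, 1.46 and 1.40 CPM. CrzR siRNA replicate 5, also among the 4 shallowest, was on for all of them, at 2.21, 4.60 and 3.84 CPM. The part of depth in these patterns was not tested beyond the scaling given above, which held the reduced counts to the same count limits.

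Some neighbouring IDs shared patterns in the wider set. Of its 2 pairs with ID numbers that differ by 1, both had the same on or off call in all 18 brains, against 3 of the 208 other pairs (1.44%). These 3 were the pairs among the 3 genes whose off brains were shallow. In all 1424 low-abundance genes, 3 of 175 pairs with consecutive IDs were alike in all 18 brains (1.71%), against 1882 of 1012515 pairs more than 5 IDs apart (0.186%). Between these, 3 of 486 pairs that were 2 to 5 IDs apart were alike (0.617%). Alike in at least 16 brains were 6.86% of consecutive pairs, 3.91% of pairs 2 to 5 IDs apart and 3.76% of distant pairs. The 1424 genes include the wider set, whose 2 consecutive pairs are among the 3 consecutive pairs alike in all brains, so this is not a separate comparison. The median number of brains with an equal call was 12 for consecutive pairs and 11 for distant pairs.

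The second consecutive pair was Hsal_00826 and Hsal_00827, of 760 and 568 bases, on in 6 CrzR siRNA and 7 GFP siRNA brains. Hsal_00826 ran from 2 to 412 counts in CrzR siRNA brains (median 43) and from 2 to 534 in GFP siRNA brains (median 68). Hsal_00827 ran from 2 to 255 counts in CrzR siRNA brains (median 33) and from 7 to 357 in GFP siRNA brains (median 80). Both groups covered nearly the same range. Across the 13 on brains Hsal_00827 had between 0.500 and 1.18 times the counts of Hsal_00826. The 5 brains that were not on were CrzR siRNA replicates 2, 4 and 5 and GFP siRNA replicates 2 and 8, with gene totals from 10424609 to 23581498, so deep libraries were among them.

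**Figure D4:**
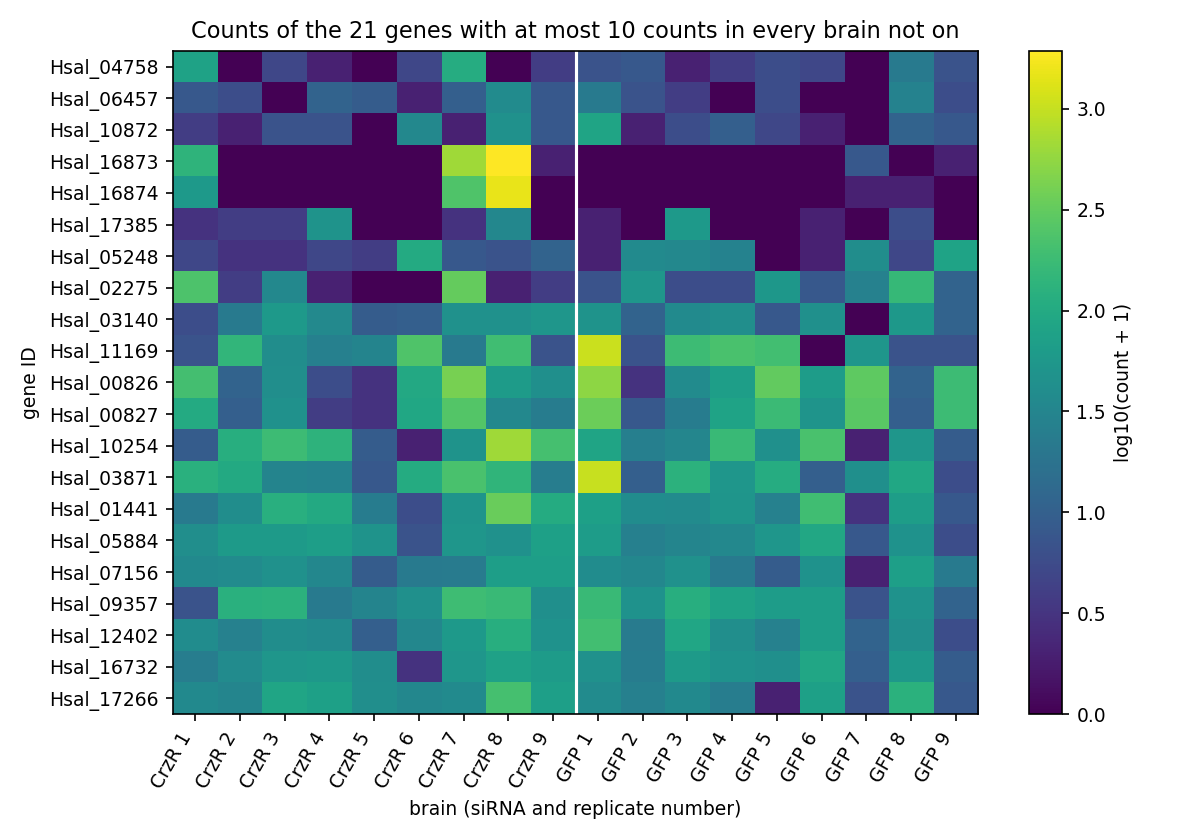
Colour gives log10(count + 1) for the 21 genes of the wider set (rows, ordered by the number of on brains) in the 9 CrzR siRNA brains (left of the white line) and the 9 GFP siRNA brains (right of it). Hsal_16873 and Hsal_16874 span 0 to 1939 and 0 to 1524 counts, whereas most other genes have intermediate counts in several brains, and Hsal_00826 and Hsal_00827 share 13 on brains.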

How the data were processed

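RNA of 18 brains, 9 per siRNA, was sequenced from strand-specific libraries in 2 runs each (36 samples), per the labels' protocols. Alignment used STAR 2.5.0b, per the submitters' processing notes; no genome build or counter is given in the sources used here. The authors deposited whole-number counts per gene, 1 column per brain. For all 18 brains the gene total equalled the sum of 2 run totals recovered from the RPKM columns, so each brain is 1 replicate. Ants were housed 3 per siRNA to a nest, the nest of each ant is not labelled, and no test could account for it. The deposited RPKM values have divisors that differ between odd and even rows and are not the brain's own total, so they served only to recover gene lengths, for 15941 genes. Per its header, the authors' deposited DESeq2 table holds a mean scaled signal, a log2 fold change and p-values. A further 769 rows for other RNA, with 0.470% to 3.18% of counts, stayed out of totals and tests.

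Computed here were CPM (count over gene total), edgeR 4.0.16 (quasi-likelihood, TMM, group as the only term, R 4.3.3) on genes with a count over 20 in at least 3 brains, DESeq2 1.42.0, and Fisher's exact and exact permutation tests (scipy 1.17.1), all two-sided. The lowest chi-square per degree of freedom between 2 libraries of a group was 41.8, so none was counted as a duplicate. The rule and lists were chosen with earlier results of these data known. The rule for named genes allowed all genes found to be named when there were fewer than 40, with genes just outside its thresholds; Hsal_04695, Hsal_17169, Hsal_16880 and the wider set were named after their values were seen.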

Additional observations from a re-analysis of the deposited data

Results flagged for a closer look

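In each siRNA group, the highest and lowest of 9 brains were compared with the rest for the CPM of Hsal_16874, the CPM of Hsal_16873 and the gene total. In 4 of these 6 groups of values 1 brain lay far from the others relative to the range, but the usual chance rate of about 1 in 20 groups does not apply: most of the CPM values are 0, and both genes were picked for such a gap. Among CrzR siRNA brains, replicate 8 had 64.2 CPM of Hsal_16874, where the next brain had 12.7 CPM. The same brain had 81.6 CPM of Hsal_16873, where the next had 35.4 CPM. Among GFP siRNA brains, replicate 7 had 0.0872 CPM of Hsal_16874, which is 1 count, where the next had 0.0424 CPM, also 1 count. That brain had 0.610 CPM of Hsal_16873, or 7 counts, where the next had 0.100 CPM. The values of the 2 genes go together, so these flags are not independent.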

How the results depend on the processing

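The log2 fold change of Hsal_16874 stayed positive and uncalled under every alternative run, between 6.89 and 9.10 (adjusted p 0.0998 to 0.556) over 8 alternatives and between 6.64 (without CrzR siRNA replicate 8) and 9.27 (without GFP siRNA replicate 7) over the removal of single brains (adjusted p 0.237 to 0.876). The edgeR count of 0 calls became 3 with DESeq2 and 4 with DESeq2 without outlier replacement (chosen after seeing the data); the cause was not tested. Removing single brains gave 0 to 2 calls, with 1 without CrzR siRNA replicate 5 and 2 without GFP siRNA replicate 8. The 841 genes at an unadjusted p under 0.05 became 1329 with no filter and 2804 with depth as a covariate, and 432 to 2084 without single brains (CrzR siRNA replicate 4 removed, 520; CrzR siRNA replicate 8 removed, 432; GFP siRNA replicate 4, 7 or 8 removed, 535, 498 or 2084). A fit with the replicate block called 0 genes, and its log2 fold change for Hsal_16874 was 8.44 (adjusted p = 0.406). Same-numbered brains showed no clear pairing, with 3 of 9 pairs correlated over 0.1 (range -0.57 to 0.77) and 3 of 18 brains closest to their own number.

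The rule found 5 genes with a count over 10 as on, 2 with an off limit of 5, 0 with an off limit of 0 and 21 with an off limit of 10. Without single brains it found 0 to 2, with 0 without CrzR siRNA replicate 1, 7 or 8. It found 1 gene under each of the other thresholds tried. With 1 gene found there was no pair of neighbours at any distance. Without GFP siRNA replicate 7 the 2 genes found were Hsal_16873 and Hsal_16874, which is 1 pair with consecutive IDs, and with an off limit of 10 there were 2 such pairs (both counts added after seeing the data); under the other thresholds and removals there were 0. Detection gave 0 calls under every threshold tried and without the shallowest brain. For the siRNA groups, a gene could not be called by itself in most of these settings, however its on brains fell. A gene at 0 could still be present below 0.316 CPM in the shallowest brain.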
